A study of Homo sapiens with 8 samples.

Results

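The genes that mark the 2 ends of the epithelial to mesenchymal axis were followed through drug selection of SUM159 cells. The set was 10 genes chosen by name, out of 18955 genes in the count table: the mesenchymal filament and adhesion genes VIM and CDH2, the transcription factors ZEB1, SNAI2 and TWIST1, the surface antigens CD44 and CD24, and the epithelial genes KRT8, KRT18 and EPCAM. Of these, 9 had a row in the table, and CD24 had no row in the table used here. Against 9288 genes that passed a filter on low levels (at least 5 CPM in at least 2 libraries, where CPM is a gene's count of unique molecular identifiers, UMIs, 1 per captured RNA molecule, scaled to a common library total), 8 members could be tested, and EPCAM fell under the filter.

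SUM159 is an established human triple-negative breast cancer line, and every cell population here carried a lentiviral library of DNA barcodes. The 8 single-cell libraries were the pre-treatment population, without selection, and populations passaged up to 18 times in DMSO vehicle, in 0.6 nM paclitaxel (a microtubule stabiliser), in 160 nM palbociclib (an inhibitor of the cyclin-dependent kinases CDK4 and CDK6), in 100 nM JQ1 (a BET bromodomain inhibitor), or in 100 nM JQ1 with either partner drug. JQ1 alone had a library in each of 2 experiments, called JQ1-A (beside DMSO, paclitaxel and JQ1 + paclitaxel) and JQ1-B (beside palbociclib and JQ1 + palbociclib, with no vehicle library). Triplicate cultures were mixed in equal cell numbers before encapsulation, so each treatment within an experiment was 1 library, and the JQ1 + palbociclib arm had lost a culture earlier. The p-values below therefore measure the spread between libraries that differ in drug and experiment, not between repeat cultures.

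Epithelial cells hold together through E-cadherin junctions and carry a cytoskeleton of paired keratins, of which keratin 8 and keratin 18 form the simple-epithelial pair. Mesenchymal cells instead carry vimentin filaments and N-cadherin, and the factors of the ZEB, SNAI and TWIST families repress epithelial genes, largely through E-box sequences. In breast cancer, a CD44-high and CD24-low surface and the loss of claudins have been tied to the mesenchymal-like, claudin-low state, in which SUM159 is usually placed.

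The library totals ran from 10621159 UMIs in DMSO to 24240835 in JQ1 + palbociclib, over 5738 cells. A set of 13 cell barcodes occurred in more than 1 library, on 26 cells. The label of the line was checked on its receptors: ESR1 and PGR lay at 0 to 0.14 CPM and ERBB2 between 5.32 and 12.0 CPM. Of 10 markers of blood and vessel cells, PTPRC, CD3D and CD14 had a row, with a summed level of 0 to 1.51 CPM. CPM was taken over all UMIs of a library. Because the assay counts 1 end of each molecule, gene length does not enter it.

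The libraries with JQ1 also differed in composition. The 100 most abundant genes took 54.0 to 55.6% of UMIs in the 4 libraries with JQ1 and 52.4% with palbociclib, against 43.4 to 45.5% in pre-treatment, DMSO and paclitaxel. By library totals, the median gene had a log2 ratio of -0.183 with JQ1, and TMM scaling in edgeR, which centres on the bulk of genes, put that median at -0.0032. Fold changes below use TMM scaling, and the result by library totals is given where it changes a call. The split of called genes moved too: 47.4% of the JQ1 calls were higher under TMM scaling and 22.9% by library totals. Mitochondrial genes took 3.71 to 3.83% of UMIs in pre-treatment, DMSO and paclitaxel and 4.75 to 7.03% in the other libraries, and the part of this in the results was not tested.

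The bases upstream of the annotated starts are shown for 3 members, to place the E-box, the sequence read by the ZEB, SNAI and TWIST factors, beside the levels that follow. A RefSeq promoter entry existed for 6 of the 10 members. CD24, which had no row in the count table, was left out. Of the other members, shown are all entries whose 250 upstream bases overlap no annotated exon. Each was found once on its chromosome of GRCh37: 1 of VIM, 2 of CDH2 and 1 of KRT8. They are written 5′ to 3′ on the gene's strand, with the letters CANNTG, which read the same on the opposite strand, in capitals.

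VIM: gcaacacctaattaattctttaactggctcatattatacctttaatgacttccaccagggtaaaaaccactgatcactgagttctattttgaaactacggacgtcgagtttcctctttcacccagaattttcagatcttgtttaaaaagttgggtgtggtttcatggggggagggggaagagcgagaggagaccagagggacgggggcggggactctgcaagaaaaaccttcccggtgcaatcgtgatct

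CDH2 first: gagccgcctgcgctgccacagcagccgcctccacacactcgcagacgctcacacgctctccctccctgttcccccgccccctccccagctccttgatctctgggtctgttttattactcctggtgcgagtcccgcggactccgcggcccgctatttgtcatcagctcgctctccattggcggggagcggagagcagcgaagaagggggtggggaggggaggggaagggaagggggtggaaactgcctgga

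CDH2 second: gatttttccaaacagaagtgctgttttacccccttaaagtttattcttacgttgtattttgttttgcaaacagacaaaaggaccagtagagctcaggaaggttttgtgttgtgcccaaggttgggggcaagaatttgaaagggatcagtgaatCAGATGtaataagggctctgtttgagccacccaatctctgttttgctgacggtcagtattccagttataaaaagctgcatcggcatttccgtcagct

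KRT8: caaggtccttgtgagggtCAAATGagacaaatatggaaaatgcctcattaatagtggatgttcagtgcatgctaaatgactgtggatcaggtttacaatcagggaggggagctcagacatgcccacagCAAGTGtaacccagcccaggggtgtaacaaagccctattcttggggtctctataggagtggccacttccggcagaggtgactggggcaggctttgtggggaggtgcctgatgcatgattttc

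The VIM window (chr10:17269990-17270239, plus strand) held no CANNTG, and the first CDH2 window (chr18:25757095-25757344, minus strand) held none either. The second CDH2 window (chr18:25616606-25616855, minus strand) held 1. In the KRT8 window (chr12:53320254-53320503, minus strand) CANNTG occurred 2 times. Both CDH2 windows and the KRT8 window lie within the annotated span of their gene, before a start other than its outermost one. Across 34788 distinct RefSeq windows of this length, 61.8% held CANNTG, and 17.5% held CACCTG or CAGGTG, the form on the 2 strands that SNAI and ZEB proteins bind best; the latter was in none of the windows shown.

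VIM, which encodes the vimentin filament (GRCh37 chr10:17270240-17279592), was the most abundant member in all 8 libraries. It stood at 4301 CPM in pre-treatment, 4080 in DMSO, 3587 in paclitaxel, 4096 in JQ1-A, 4502 in JQ1 + paclitaxel, 3378 in palbociclib, 4047 in JQ1-B and 3279 in JQ1 + palbociclib. The libraries with and without JQ1 overlapped, and the lowest and the highest both carried JQ1. With JQ1 the level averaged 3981 ± 510 CPM and without it 3837 ± 427 (SD, n = 4 libraries each), a log2 fold change of 0.25 ± 0.11 (SE) that did not pass (adjusted p = 0.106, edgeR). By library totals it was 0.05. Both libraries with palbociclib lay below all others in CPM, but the palbociclib term did not pass (log2 fold change -0.26 ± 0.13, adjusted p = 0.287, edgeR).

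CDH2, which encodes N-cadherin, the cadherin of mesenchymal and neural cells (chr18:25512843-25757910), was far less abundant than VIM but rose with JQ1. Its level was 22.3 CPM in pre-treatment, 25.8 in DMSO, 23.1 in paclitaxel and 23.1 in palbociclib, against 26.8 in JQ1-A, 29.6 in JQ1 + paclitaxel, 27.8 in JQ1-B and 38.1 in JQ1 + palbociclib. Each library with JQ1 lay above each library without it, on both scales. The mean was 30.6 ± 5.13 CPM with JQ1 and 23.6 ± 1.53 without (SD, n = 4 libraries each), a log2 fold change of 0.56 ± 0.11 (adjusted p = 0.00642, edgeR). By library totals the log2 fold change was 0.36, and the call stood at the threshold (adjusted p = 0.0498, edgeR). Of all genes tested, 24.5% did not overlap between the 4 and 4 libraries under TMM scaling, and 28.2% by library totals. Taken against the matched library of the same experiment, the TMM-scaled log2 ratio was 0.31 for JQ1-A over DMSO, 0.63 for JQ1 + paclitaxel over paclitaxel and 0.77 for JQ1 + palbociclib over palbociclib. By library totals the first of these, a ratio of 1.04, had a 95% counting interval that held 1 (0.892 to 1.21). The call held in all 8 fits that left out a library (0.49 to 0.63), but not with experiment as a term (0.57, adjusted p = 0.0854, edgeR) or with the 3 matched pairs as a block (0.57, adjusted p = 0.0873, edgeR). With experiment as a term, JQ1 is estimated from the same 3 pairs, so these fits are nearly the same check.

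**Figure D1:**
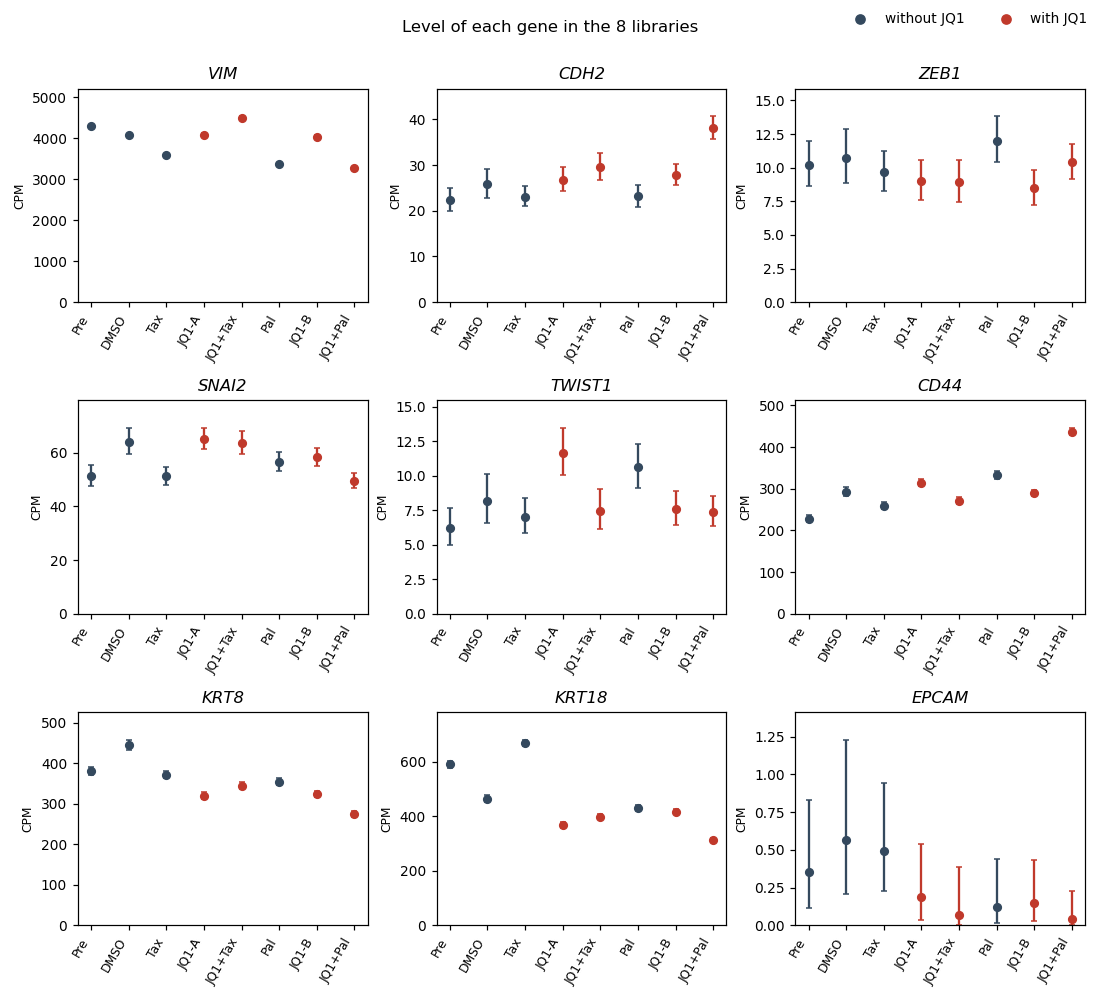
Level of the 9 members with a row, in CPM of library totals (y axis, from 0), in each of the 8 libraries (x axis; Pre is pre-treatment, Tax paclitaxel and Pal palbociclib); bars are exact 95% Poisson intervals of the UMI count and cover counting error only. CDH2 sits at 26.8 to 38.1 CPM in the libraries with JQ1 (red) and 22.3 to 25.8 without (dark blue), KRT18 lies lower in the libraries with JQ1, and EPCAM stays under 1 CPM.

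The 3 transcription factors did not pass the test for JQ1. SNAI2, which encodes SLUG (chr8:49830157-49834299), was the most abundant of them: 51.3 CPM in pre-treatment, 64.0 in DMSO, 51.3 in paclitaxel, 65.1 in JQ1-A, 63.6 in JQ1 + paclitaxel, 56.6 in palbociclib, 58.2 in JQ1-B and 49.5 in JQ1 + palbociclib. DMSO and JQ1-A were almost level, and the 2 groups overlapped. The log2 fold change was 0.27 ± 0.14 (adjusted p = 0.144, edgeR), and 0.08 by library totals. It depended on libraries with either partner drug: without palbociclib it was 0.45 (adjusted p = 0.0197, edgeR) and without JQ1 + palbociclib 0.42 (adjusted p = 0.0272, edgeR), but 0.17 without paclitaxel and 0.17 without JQ1 + paclitaxel. VIM moved in the same way, passing at 0.36 and 0.33 in the first 2 of these fits and lying at 0.13 and 0.13 in the others. For JQ1 + palbociclib over palbociclib, the TMM-scaled log2 ratio was -0.14 for SNAI2 and 0.01 for VIM. For JQ1 + paclitaxel over paclitaxel it was 0.58 for SNAI2 and 0.60 for VIM.

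ZEB1, a zinc-finger repressor of E-cadherin (chr10:31607424-31818742), had few counts, 114 to 252 UMIs a library. Its level ran over 10.2 CPM in pre-treatment, 10.7 in DMSO, 9.68 in paclitaxel, 9.02 in JQ1-A, 8.92 in JQ1 + paclitaxel, 12.0 in palbociclib, 8.47 in JQ1-B and 10.4 in JQ1 + palbociclib. The counting interval of the ratio of JQ1-A to DMSO, 0.841, ran from 0.653 to 1.08, and that of JQ1-B to JQ1-A, 0.939, from 0.749 to 1.18. With JQ1 the log2 fold change was -0.02 ± 0.12 (adjusted p = 0.92, edgeR), the smallest of the 8 members, and its sign changed with the processing. Under TMM scaling both libraries with palbociclib lay above the other 6, as 15.1% of all genes did in one direction or the other, and the palbociclib term did not pass (0.27 ± 0.14, adjusted p = 0.298, edgeR).

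TWIST1, a basic helix-loop-helix factor (chr7:19060614-19157259), was the least abundant tested member, with 87 to 189 UMIs a library. The level was 11.7 CPM in JQ1-A and 10.6 in palbociclib, and in the other libraries it was 6.24 in pre-treatment, 8.19 in DMSO, 7.04 in paclitaxel, 7.46 in JQ1 + paclitaxel, 7.59 in JQ1-B and 7.38 in JQ1 + palbociclib. The 2 libraries of JQ1 alone thus differed, with a ratio of JQ1-B to JQ1-A of 0.649 (95% counting interval 0.522 to 0.808). The log2 fold change with JQ1 was 0.28 ± 0.24 (adjusted p = 0.371, edgeR). Single libraries moved it widely: it was 0.08 without JQ1-A, 0.13 without pre-treatment, 0.58 without palbociclib (adjusted p = 0.0508, edgeR) and 0.56 without JQ1 + palbociclib (adjusted p = 0.0613, edgeR).

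CD44, the hyaluronan receptor used as a mesenchymal and stem-like surface antigen (chr11:35160429-35253949), was highest in JQ1 + palbociclib. Its level was 228 CPM in pre-treatment, 293 in DMSO, 260 in paclitaxel, 315 in JQ1-A, 271 in JQ1 + paclitaxel, 333 in palbociclib, 289 in JQ1-B and 437 in JQ1 + palbociclib. The groups with and without JQ1 overlapped, since palbociclib alone exceeded 3 of the 4 libraries with JQ1. The mean was 328 ± 75.0 CPM with JQ1 and 278 ± 44.8 without (SD, n = 4 libraries each), and with the partner drugs in the model CD44 rose with JQ1, by a log2 fold change of 0.42 ± 0.10 (adjusted p = 0.0145, edgeR). Against the matched library the TMM-scaled log2 ratios were 0.36 over DMSO, 0.34 over paclitaxel and 0.45 over palbociclib. The call was lost by library totals (0.22, adjusted p = 0.141, edgeR), without pre-treatment (0.34, adjusted p = 0.0525, edgeR), without JQ1-A (0.38, adjusted p = 0.0641, edgeR), with experiment as a term (adjusted p = 0.122, edgeR) and with the matched pairs (adjusted p = 0.124, edgeR).

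CD44 was also the member with the largest difference for palbociclib. Its mean was 385 ± 73.9 CPM in the 2 libraries with palbociclib and 276 ± 30.2 in the 6 without, a log2 fold change of 0.49 ± 0.12 that missed the threshold in edgeR (adjusted p = 0.0926) and passed it in DESeq2 (0.48, adjusted p = 0.0206); over the edgeR alternatives the adjusted p ran from 0.0509 to 0.898. In CPM, both libraries with palbociclib exceeded all 6 others for CD44 and lay under all 6 for VIM, and 14.4% of all genes did not overlap in this way. Under TMM scaling both genes overlapped: palbociclib lay under JQ1-A for CD44 and above paclitaxel for VIM. JQ1 + palbociclib held 1.51 times the CD44 level of JQ1-B (95% counting interval 1.47 to 1.56).

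KRT18 and KRT8 encode keratin 18 and keratin 8, and lie head to head on chromosome 12 (chr12:53342655-53346690, plus strand, and chr12:53290971-53343738, minus strand). Both were clearly expressed in this mesenchymal-like line. KRT18 stood at 591 CPM in pre-treatment, 465 in DMSO, 669 in paclitaxel and 429 in palbociclib, against 368 in JQ1-A, 399 in JQ1 + paclitaxel, 416 in JQ1-B and 313 in JQ1 + palbociclib. By library totals each library with JQ1 lay below each without, although palbociclib and JQ1-B were close, and under TMM scaling the groups overlapped. Of all genes, 28.2% did not overlap by library totals, in either direction. KRT18 fell with JQ1 from 538 ± 111 to 374 ± 45.3 CPM (SD, n = 4 libraries each), a log2 fold change of -0.32 ± 0.11 (adjusted p = 0.0476, edgeR). The call stood at the threshold: it held in 1 of the 8 fits that left out a library, without DMSO (-0.41), and the other 7 gave -0.37 to -0.26 with adjusted p of 0.0686 to 0.155 (edgeR). The call was also lost with experiment as a term (-0.32, adjusted p = 0.196, edgeR) and with the matched pairs (-0.32, adjusted p = 0.194, edgeR). By library totals the fall was larger (-0.52, adjusted p = 0.00799, edgeR).

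KRT8 was 381 CPM in pre-treatment, 445 in DMSO, 371 in paclitaxel and 354 in palbociclib, and 320 in JQ1-A, 345 in JQ1 + paclitaxel, 324 in JQ1-B and 275 in JQ1 + palbociclib. In CPM the 4 libraries with JQ1 were again the 4 lowest, where 28.2% of all genes did not overlap in either direction. Under TMM scaling the KRT8 groups overlapped. The test gave different answers on the 2 scales, -0.10 ± 0.10 under TMM scaling (adjusted p = 0.455, edgeR) and -0.30 by library totals (adjusted p = 0.0362, edgeR), so a change in KRT8 relative to the bulk of genes was not shown. Its matched TMM-scaled log2 ratios had both signs, with -0.22 over DMSO, 0.17 over paclitaxel and -0.32 over palbociclib. The annotation lists 51 pseudogenes named for KRT8 and 67 for KRT18, none of which had a row in the table, so how reads shared with these copies were counted is uncertain.

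The 2 keratins are partners in 1 filament but did not keep 1 ratio. KRT18 UMIs per KRT8 UMI were 1.04 in DMSO and 1.80 in paclitaxel, the lowest and highest values, with 1.55 in pre-treatment and 1.14 to 1.28 in the other 5 libraries. Paclitaxel held 1.44 times the KRT18 level of DMSO (95% counting interval 1.39 to 1.49) but 0.834 times its KRT8 level (0.804 to 0.866). These are single libraries. JQ1 + paclitaxel held 1.08 times the KRT18 level of JQ1-A (1.05 to 1.12), and the paclitaxel term did not pass for KRT18 (0.22 ± 0.13, adjusted p = 0.885, edgeR). VIM UMIs per UMI of the 2 keratins together were 3.45 in paclitaxel, 4.31 in palbociclib, 4.42 in pre-treatment and 4.49 in DMSO. With JQ1 they were 5.47 to 6.05 in the 4 libraries. This ratio does not depend on scaling, and was not tested. No ratios of other genes were taken as background, and neither VIM nor KRT8 passed for JQ1 under TMM scaling.

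EPCAM, the epithelial cell adhesion molecule (chr2:47572297-47614740), had 30 UMIs in all, in 30 cells. The counts were 5 in pre-treatment, 6 in DMSO, 9 in paclitaxel, 3 in JQ1-A, 1 in JQ1 + paclitaxel, 2 in palbociclib, 3 in JQ1-B and 1 in JQ1 + palbociclib, or 0.041 to 0.56 CPM. This was the range of the blood marker CD14, at 0 to 0.97 CPM. The summed level of PTPRC, CD3D and CD14 was 1.13 to 1.51 CPM in the libraries without JQ1 and 0 to 0.30 CPM with it. With so few UMIs, EPCAM was not told apart from background. In the fit without the filter on low counts its JQ1 term was -1.49 (adjusted p = 0.123, edgeR), and nothing is read from this value.

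Over all members, 2 of the 8 tested rose with JQ1 (CDH2 and CD44) and 1 fell (KRT18), where 17.8% of all genes were called higher and 19.7% lower. The median log2 fold change of the 8 was 0.26, beside -0.0032 over all genes. By library totals the called members were CDH2, KRT8 and KRT18, where 3777 of 9288 genes were called, 22.9% of them higher. CDH2 stood at the threshold there (0.36, adjusted p = 0.0498, edgeR). No member was called for palbociclib, where 0.28% of all genes were, or for paclitaxel, where 0% were in edgeR. At an unadjusted p under 0.05, edgeR had 1 member for palbociclib and 0 for paclitaxel (2056 and 395 of all genes). DESeq2 called 1 member (CD44) for palbociclib and 0 for paclitaxel, where it called 515 and 9 of 9288 genes. The design has 2 libraries per partner drug, which limits these terms.

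**Figure D2:**
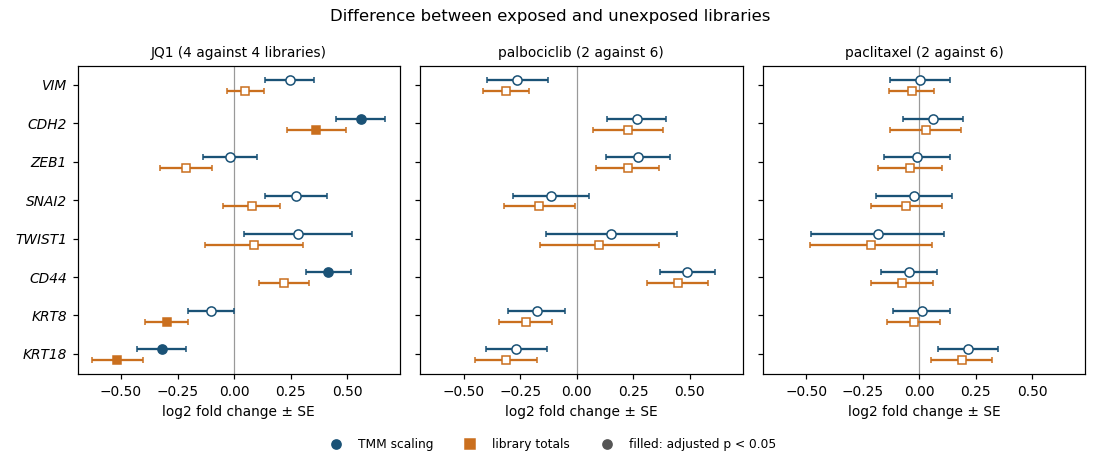
Log2 fold change (x axis) with its SE for the 8 tested members (y axis) between libraries with and without each drug, from edgeR fits with TMM scaling (circles) and with library totals (squares); filled marks have an adjusted p under 0.05. For JQ1 the library-total values all lie to the left of the TMM values. CDH2 and KRT18 are filled on both scales, CDH2 only just by library totals and KRT18 only just under TMM scaling. CD44 is filled only under TMM scaling and KRT8 only by library totals.

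Whether JQ1 acted differently in the presence of a partner drug was tested by interaction terms. In edgeR 0 members passed, where 0.0108% of all genes were called for palbociclib and 0.388% for paclitaxel. At an unadjusted p under 0.05 edgeR had TWIST1 for palbociclib and VIM for paclitaxel. The largest term was that of TWIST1 with palbociclib, -1.12 ± 0.41 on the log2 scale (adjusted p = 0.223, edgeR). TWIST1 was lower in JQ1 + palbociclib than in palbociclib (ratio 0.695, 95% counting interval 0.561 to 0.860). It was higher in JQ1-A than in DMSO (1.43, 1.10 to 1.86), but JQ1-B, at 7.59 CPM, lay under DMSO, at 8.19. Fitted without the filter on low counts, the TWIST1 term had an adjusted p of 0.0346 (edgeR), and DESeq2 called 0 members. The calls over all genes in these alternative interaction fits were not counted. For VIM the paclitaxel term was 0.41 ± 0.16 (adjusted p = 0.252, edgeR).

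The levels were next resolved by cell. Cells that passed the study's own limits on genes and mitochondrial share were thinned to 10000 UMIs each, which kept 5487 cells and left out 88 shallower ones. VIM was seen in every cell but 1 of JQ1-A, with a mean of 32.3 to 45.0 UMIs per cell. Within DMSO the 10th percentile of cells had 20 UMIs of VIM and the 90th 58, and within JQ1 + palbociclib 14 and 56. CD44 was seen in 87.0 to 98.3% of cells, KRT18 in 86.1 to 97.5% and KRT8 in 81.3 to 95.5%. UMIs of VIM and of the keratins thus occurred under the same cell barcodes in all 8 libraries; free RNA in the droplets was not estimated.

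For the rarer members, the share of cells with a UMI mostly follows the level. CDH2 was seen in 21.4% of cells in pre-treatment, 20.7% in DMSO, 20.1% in paclitaxel and 19.2% in palbociclib, and in 24.2% in JQ1-A, 28.2% in JQ1 + paclitaxel, 23.7% in JQ1-B and 32.4% in JQ1 + palbociclib. All 4 shares with JQ1 exceeded the 4 without, although the exact 95% binomial interval of JQ1-B (20.8 to 26.7%) overlapped that of DMSO (17.0 to 24.7%). At 5000 UMIs per cell this order was lost, with 11.7% in JQ1-A and 12.9% in pre-treatment. How many of all genes separate by share was not counted, and in CPM 28.2% did not overlap. SNAI2 was seen in 35.2 to 48.3% of cells, TWIST1 in 6.18 to 10.7% and ZEB1 in 7.76 to 10.8%. With all UMIs of the same cells the CDH2 shares were 38.9 to 44.3% without JQ1 and 42.6 to 57.4% with it, and these ranges overlapped.

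For the keratins the shares with JQ1 lay below those without, narrowly for KRT8 (88.6% in JQ1-A, 88.7% in paclitaxel). At 5000 UMIs per cell KRT8 kept this order and KRT18 lost it, with 79.8% in JQ1-B and 79.0% in palbociclib. Thinned shares follow library totals, and under TMM scaling the levels of both keratins overlapped. How many of all genes separate in this way was not counted. The share for KRT18 was lowest in JQ1 + palbociclib, where 86.1% of cells had a UMI (interval 83.8 to 88.2%), against 93.2% in palbociclib (lower bound 91.0%). After thinning, EPCAM was seen in 0 of 972 cells of JQ1 + palbociclib, which at this depth allows a share of cells with a UMI of up to 0.309% by 3 counts or 0.379% by the exact interval. Before thinning 0.103% of the same cells had a UMI. The highest thinned share was 0.683%, in paclitaxel. PTPRC, CD3D and CD14, genes of blood cells that a breast cancer line should lack, were seen in 0 to 0.956% of cells. Median depth before thinning was 20800 to 22858 UMIs in all libraries.

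**Figure D3:**
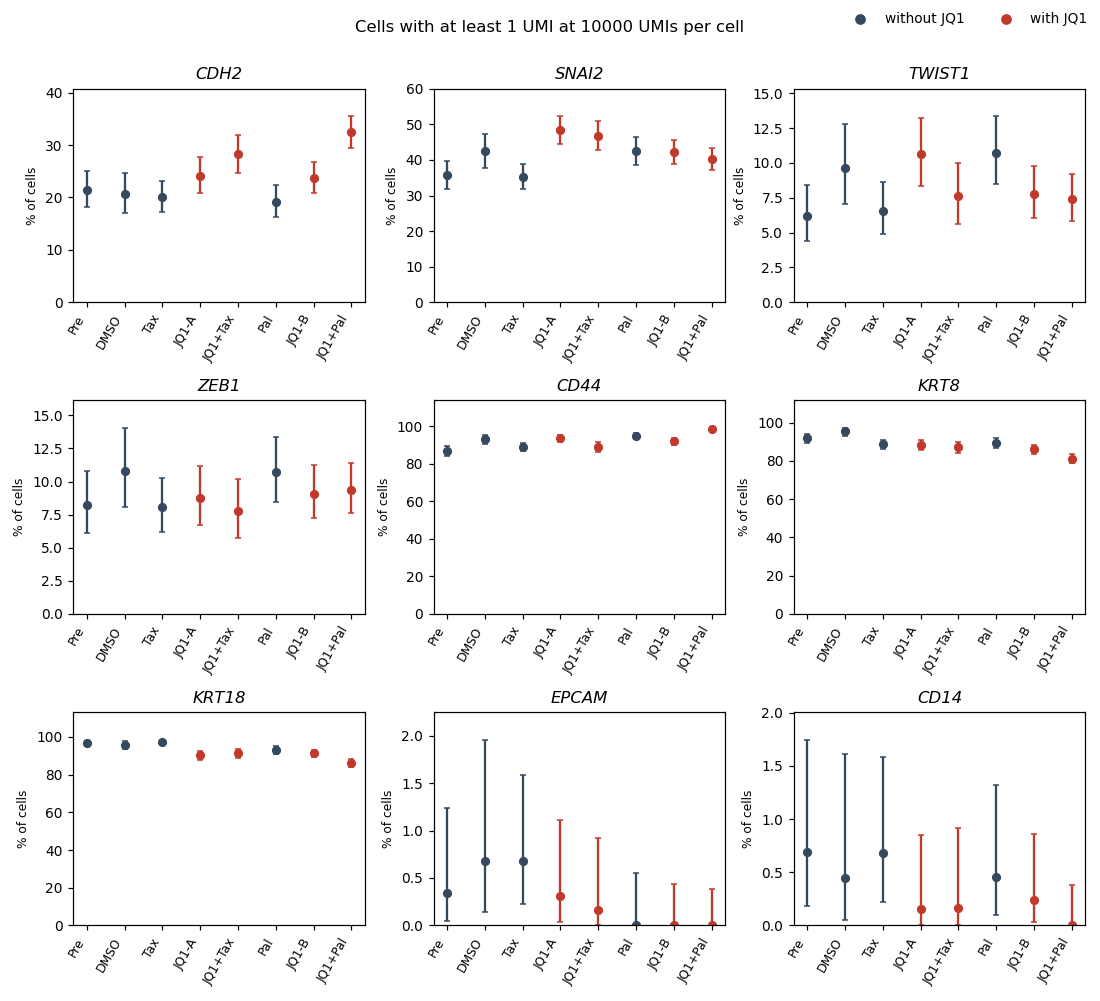
Share of cells with at least 1 UMI after thinning to 10000 UMIs per cell (y axis, percent, from 0) in the 8 libraries (x axis), for 8 members and the blood marker CD14; bars are exact 95% binomial intervals. CDH2 lies at 19.2 to 21.4% without JQ1 (dark blue) and 23.7 to 32.4% with it (red), an order not kept at 5000 UMIs per cell. EPCAM and CD14 stay under 1%.

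Spread between cells beyond counting noise was expressed as the excess squared coefficient of variation. KRT8 was among the more variable members, at 0.24 in DMSO, 0.333 in pre-treatment and 0.468 in paclitaxel, and 0.494 to 0.59 in the 4 libraries with JQ1, with 0.36 in palbociclib. For comparison, a median was taken over every gene that averaged 0.5 UMI per cell or more, without matching to the level of any member. This median was also higher with JQ1, at 0.154 to 0.17, than in palbociclib, at 0.151, and in the other 3, at 0.0989 to 0.121. KRT8 exceeded 82.2 to 94.9% of those genes in all 8 libraries, and VIM exceeded 46.7% (JQ1-A) to 83.8% (paclitaxel). For CD44 the libraries with JQ1 included both extremes, an excess of 0.0716 in JQ1 + palbociclib, above 17.5% of genes, and of 0.213 in JQ1 + paclitaxel, above 61.6%.

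Across cells, VIM and the keratins KRT8 and KRT18 did not exclude each other. The correlations that follow are descriptions across the 445 to 972 cells of each library, at equal depth, on log2 of 1 plus the UMI count. KRT8 and KRT18 had the highest Pearson r of the 28 pairs, a mean of 0.39 over the 8 libraries (0.34 to 0.42). VIM correlated positively with both, with means of 0.21 for KRT8 (0.13 to 0.30) and 0.21 for KRT18 (0.12 to 0.31), in 8 of 8 libraries. VIM and CD44 had a mean of 0.14 (0.05 to 0.23), also in 8 of 8.

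The remaining pairs had means between -0.05 and 0.03, and all but ZEB1 and KRT8 had libraries of both signs. The means of ZEB1, SNAI2 and TWIST1 with either keratin were all below 0, from -0.05 (TWIST1 and KRT18) to -0.02 (TWIST1 and KRT8). KRT18 was positive with TWIST1 in 1 of 8 libraries, and with SNAI2 in 1 of 8. ZEB1 and KRT8 had a mean of -0.03, below 0 in 8 of 8 libraries (-0.05 to -0.01), which at these counts is too weak to read. CDH2 and VIM, both mesenchymal by name, had a mean of -0.04. For genes as sparse as CDH2, ZEB1 and TWIST1, counting noise limits any correlation. Cells with a UMI of both CDH2 and SNAI2 made up 12.2% of JQ1-A, where independent detection would give 11.7%, and 11.4% of JQ1 + palbociclib, against 13.0%.

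The same members moved with other measures of the cell. VIM, KRT8 and KRT18 were each lower in cells with a high mitochondrial share (mean r of -0.29, -0.13 and -0.21), and higher in cells with more UMIs before thinning (0.14, 0.12 and 0.19), in 8 of 8 libraries. With mitochondrial share and the summed S-phase and G2/M genes held fixed, the mean partial correlation was 0.18 for VIM and KRT8, 0.16 for VIM and KRT18 and 0.37 for KRT8 and KRT18. The part of UMIs before thinning in these correlations was not tested. KRT18 also correlated with the S-phase list (0.12, 8 of 8 libraries), and SNAI2 correlated negatively (-0.08, 8 of 8). The summed list of other mesenchymal surface and matrix genes had mean r of 0.11 with CD44, 0.10 with KRT8, 0.09 with VIM and 0.07 with CDH2. It was 0.06 with SNAI2, 0.05 with TWIST1, 0.01 with ZEB1 and -0.03 with KRT18. For KRT8 the value was positive in 6 of 8 libraries (-0.01 to 0.24), and for KRT18 in 4 of 8 (-0.17 to 0.09).

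**Figure D4:**
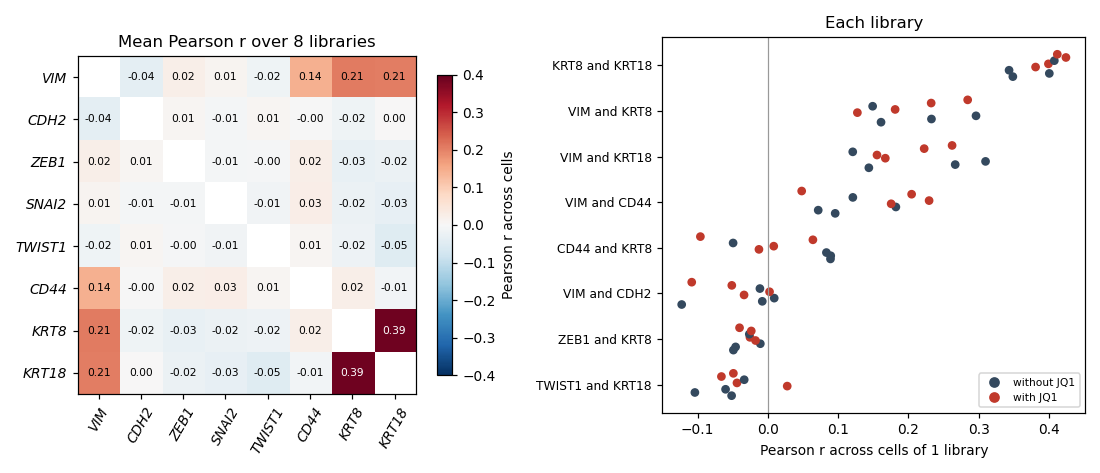
Pearson r across cells at 10000 UMIs per cell: left, mean over the 8 libraries for each pair of tested members (colour scale from -0.4 to 0.4); right, the value in each library (x axis) for 8 pairs (y axis), with JQ1 in red and without in dark blue. KRT8 and KRT18 lie at 0.34 to 0.42 in all libraries, and the pairs of VIM with KRT8, KRT18 and CD44 lie above 0.

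The genes most like each member were ranked by the mean r over the 8 libraries among 2083 others with a mean of at least 0.5 UMI per cell. VIM was most like GAPDH (0.55), NPM1 (0.41), ANXA2 (0.40), ACTG1 (0.35) and LDHB (0.34), with KRT8 at rank 44 and KRT18 at rank 46. KRT8 was most like KRT18 (0.39), GAPDH (0.34), LDHA (0.27), the keratin KRT7 (0.26) and ENO1 (0.25). KRT18 had the same 5 with KRT8 in place of itself, at 0.39 for KRT8, 0.36 for GAPDH, 0.32 for LDHA, 0.30 for ENO1 and 0.30 for KRT7. The keratins and VIM thus shared GAPDH among their most alike genes.

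CD44 was most like VIM (0.14), followed by the aminopeptidase ANPEP (0.10), the protease inhibitor TIMP1 (0.10), the long noncoding RNA NEAT1 (0.08) and the collagen COL6A3 (0.08). SNAI2 was most like MYC (0.10), IER3 (0.08), ERRFI1 (0.07), ZFP36L1 (0.06) and IRX2 (0.06). These values are low, and the lists for SNAI2 and CD44 are descriptions of weak relations. ZEB1, TWIST1 and CDH2 were under the level needed for a ranking.

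Other genes of the same programmes were taken from lists. Their counts are to be read against the 17.8% of all genes called higher and 19.7% called lower with JQ1 under TMM scaling. Counts by library totals have another background: 3777 of 9288 genes were called for JQ1, 22.9% of them higher. Nothing is read from a count as particular to its list. With experiment as a term or with the matched pairs, calls fell over all genes too, to 463 and 361. Of 9 tested mesenchymal transcription factors besides the members, 1 rose with JQ1 and 3 fell, with a median log2 fold change of -0.03. Those that fell were TCF4, a helix-loop-helix factor that can repress E-cadherin (-1.09 ± 0.15, adjusted p = 0.00204, edgeR), HMGA2, a chromatin protein of fetal and tumour cells (-1.01 ± 0.22), and RUNX2, a bone-lineage factor (-0.71 ± 0.16). TCF4 went from 9.46 to 11.6 CPM without JQ1 to 3.65 to 5.98 with it. The gene that rose, SOX4 (0.65 ± 0.19), was named after its value was seen, and its call was lost by library totals. With experiment as a term TCF4 alone of these kept its call, and with the matched pairs 0 did.

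Of 16 tested mesenchymal surface and matrix genes, 9 rose with JQ1 and 2 fell, with a median log2 fold change of 0.54 (0.34 by library totals, with 8 and 4 called). FN1, the matrix glycoprotein fibronectin, rose from 56.1 CPM in pre-treatment, 69.6 in DMSO and 59.3 in paclitaxel to 146 to 284 CPM with JQ1, while palbociclib alone stood at 260 (1.5 ± 0.32, adjusted p = 0.00927, edgeR). FSTL1, a secreted glycoprotein, rose by 1.40 ± 0.28. TGFBI, a matrix protein induced by TGF-beta, rose with JQ1 (1.08 ± 0.15, adjusted p = 0.00215, edgeR) and was the 1 list gene called for palbociclib (1.23, adjusted p = 0.0426, edgeR). CDH11, which encodes a mesenchymal cadherin, fell by 1.83 on the log2 scale, from 8.19 to 13.3 CPM without JQ1 to 1.94 to 3.90 with it, the direction opposite to CDH2. The second gene that fell, MYL9, a myosin light chain, was named after its value was seen (-1.13 ± 0.26). With experiment as a term, and with the matched pairs, 2 of these genes rose and 1 fell, and FN1 and FSTL1 lost their calls.

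Of 6 tested epithelial junction and surface genes, 2 rose with JQ1 and 2 fell, and the median was -0.06. By library totals 1 rose and 2 fell. DSP, the desmosome protein desmoplakin, rose by 1.77 ± 0.44 from a low level (0.355 to 3.44 CPM without JQ1, 3.0 to 6.72 with it; adjusted p = 0.0163, and 0.0603 without DMSO, edgeR), and DSG2, a desmosomal cadherin named after its value was seen, by 0.43. AP1M2, an adaptor subunit of epithelial sorting, fell by 1.70, and PKP3, a desmosomal plakophilin, fell by 1.13. CDH1, the E-cadherin gene, had no row in the table used here, and CLDN3, CLDN4 and CLDN7 lay at 0 to 1.69 CPM. Of 3 tested epithelial transcription and splicing factors, KLF5 (1.24 ± 0.14) and TFAP2A (0.73 ± 0.14) rose, and ESRP1 and ESRP2 lay at 0 to 0.083 CPM. With experiment as a term, and with the matched pairs, both rises among the junction genes were lost and the 2 falls held, and TFAP2A lost its call (adjusted p = 0.079 and 0.081, edgeR) while KLF5 held.

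Among 3 other tested keratins, KRT80 fell (-0.72 ± 0.20, adjusted p = 0.0243, edgeR). This call was lost without pre-treatment (-0.68), JQ1-A (-0.60), palbociclib (-0.52) or JQ1 + palbociclib (-0.55), with experiment as a term (-0.84) and with the matched pairs (-0.84). KRT7, the simple-epithelial keratin found beside KRT8 and KRT18, ran from 501 CPM in JQ1-A to 1419 in paclitaxel and did not pass (-0.25 ± 0.17, adjusted p = 0.275, edgeR). Like KRT18, its highest library was paclitaxel. KRT5, KRT14, KRT17 and KRT19 were under 1 CPM in all 8 libraries.

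Of 16 tested TGF-beta signalling genes, 6 rose with JQ1 and 1 fell (median 0.40). By library totals 3 rose and 2 fell. SMAD7, a feedback inhibitor of the pathway (1.17 ± 0.23), and the ligand TGFB1 (0.82 ± 0.09) rose, and LTBP1, which stores latent ligand in the matrix, fell by 1.39. With experiment as a term, and with the matched pairs, TGFB1 alone was called, and SMAD7 (adjusted p = 0.0623 and 0.0658, edgeR) and LTBP1 (0.0507 and 0.0541) were not. Of 7 tested stem and progenitor surface markers, 3 rose and 1 fell; by library totals 1 rose and 1 fell, and with experiment as a term or the matched pairs ITGB4 alone rose. ITGB4, the beta 4 integrin, rose by 2.21 ± 0.32, and PROCR, the protein C receptor, by 0.41 ± 0.09, a call lost by library totals (0.21, adjusted p = 0.137, edgeR). ENG, a TGF-beta co-receptor, fell by 0.65 on the log2 scale (adjusted p = 0.02, and 0.0624 without JQ1-A, edgeR). Of the receptors that define the subtype, ERBB2 alone was tested and rose (0.82 ± 0.18, adjusted p = 0.0106, edgeR), a call lost with experiment as a term (0.72, adjusted p = 0.109, edgeR) and with the matched pairs (0.72, adjusted p = 0.112, edgeR).

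**Figure D5:**
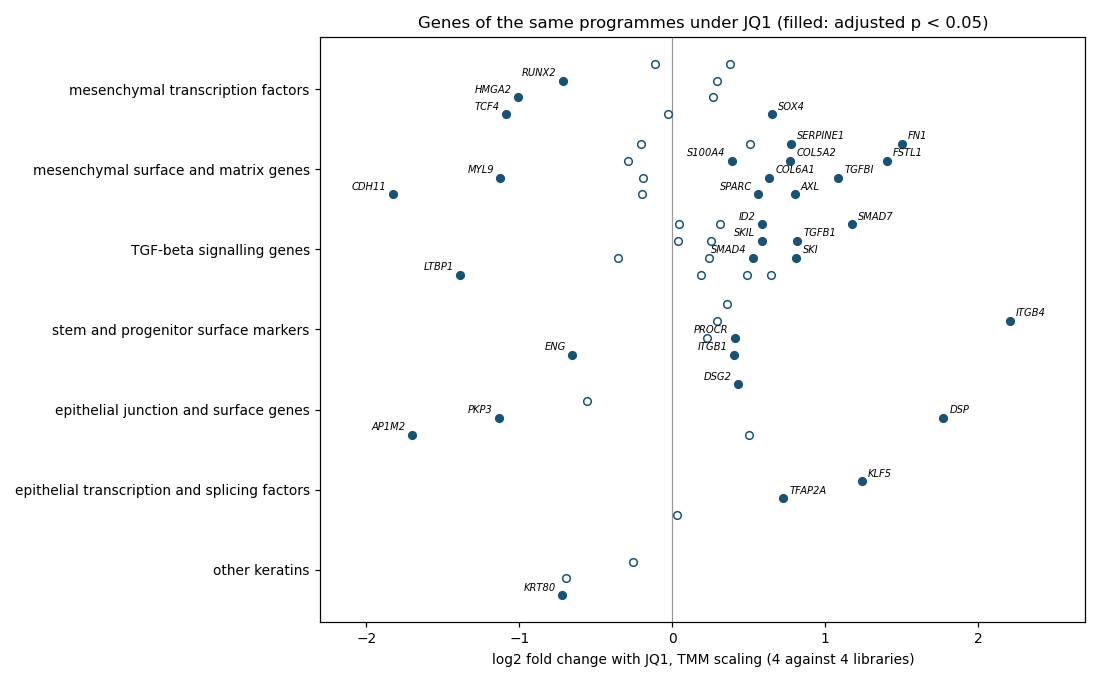
Log2 fold change with JQ1 (x axis, TMM scaling, 4 against 4 libraries) of the tested genes in 7 lists (y axis, 1 row each, points offset for legibility); filled, named points have an adjusted p under 0.05. The mesenchymal surface and matrix list has 9 filled points to the right of 0 and 2 to the left, and the mesenchymal transcription factors 1 and 3.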

How the data were processed

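The deposited table holds whole UMI counts for each gene in each cell. The authors made it from 10x Genomics 3′ v2 libraries with Cell Ranger on hg19, left out genes seen in under 3 cells, and deposited a second file that names each cell's library. The annotation behind the counting was not stated. The study's cell filter (1 to 15% mitochondrial UMIs, at least 2000 genes) was not applied in the table. All 5738 cells were summed per library, since cells are not replicates, and 5575 passed the filter for values per cell. No doublet caller was run, as all cells are of 1 line.

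Genes with at least 5 CPM in at least 2 libraries were tested in edgeR 4.0.16 (R 4.3.3), with TMM scaling, the quasi-likelihood test and additive terms for JQ1, palbociclib and paclitaxel (4 residual degrees of freedom), or with interaction terms (2). p was two-sided and Benjamini-Hochberg adjusted over all genes, and called under 0.05. SE was approximated as the fold change over the root of F. DESeq2 1.42.0 and other scalings, filters, cells and left-out libraries were alternatives. Thinning (scipy 1.17.1, numpy 2.4.6) drew UMIs without replacement with a fixed seed. Phase lists came from Seurat 5.3.0 (41 S-phase and 52 G2/M genes with a row). Intervals are 95% and cover counting error only. A count of 0 allows up to 3 counts. The scripts were tested on simulated data.

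The members and lists were chosen with earlier results of these data known. Text names all members, up to 3 called genes of each list for JQ1 and 1 for each partner drug by size, list genes of at least 100 CPM as levels, and the 5 genes most like each member. Positions are GRCh37, the build of hg19, from GENCODE, and upstream sequences are from RefSeq (GRCh38.p14), placed on GRCh37 by exact match.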

Additional observations from a re-analysis of the deposited data

How the results depend on the processing

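CDH2, CD44 and KRT18 kept their direction for JQ1 in the 8 fits that left out a library and the 9 other alternatives. Their call held in 8, 6 and 1 of the former and in 7, 6 and 5 of the latter. Among the latter, experiment as a term and the matched pairs use the same pairs for JQ1 and are nearly the same check. The count of called members was 3 for JQ1, 0 with experiment as a term or with the matched pairs as a block, and 1 to 4 when a library was left out: 1 without pre-treatment or without JQ1-A, 4 without palbociclib or without JQ1 + palbociclib. The cause of these changes was not tested, beyond the fewer samples or residual degrees of freedom of those fits. DESeq2 called 1 member for palbociclib, and 1 member had an interaction when low genes were kept. KRT18 lost its call without a filter on low counts (-0.31) and with a minimum of 20 CPM (-0.26). Scaling by library totals was added after seeing the data; its 3 members called for JQ1 include KRT8 in place of CD44.

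Values near 0 changed sign. For JQ1, ZEB1 was 0.0016 in cells passing the study's filter and 0.0050 without the cells of most UMIs, and -0.078 to 0.065 when a library was left out, while KRT8 was -0.19 to 0.0020. For palbociclib, SNAI2 was -0.41 to 0.16 and TWIST1 -0.38 to 0.65 when a library was left out. For paclitaxel, leaving out a library gave -0.25 to 0.23 for VIM, -0.13 to 0.11 for ZEB1, -0.24 to 0.17 for SNAI2, -0.33 to 0.044 for TWIST1, -0.12 to 0.020 for CD44 and -0.18 to 0.18 for KRT8. A minimum of 20 CPM gave -0.021 for VIM and -0.014 for KRT8, leaving out the cells of most UMIs -0.011 for VIM, experiment as a term -0.043 for KRT8, and library totals -0.034 for VIM and -0.025 for KRT8. Without a filter on low counts ZEB1 was 0.037, SNAI2 0.020 and CD44 0.0020, and in cells passing the study's filter ZEB1 was 0.016. A left-out library can leave a partner drug with a lone sample, which is then assumed to vary like the others. At 20 CPM, ZEB1 and TWIST1 were not tested.

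Over all genes, 3488 were called for JQ1, 463 with experiment as a term, 361 with the matched pairs and 1760 to 4190 with a library left out. For palbociclib 26 were called, 515 in DESeq2, 205 without a filter on low counts, 16 at 20 CPM, 0 with experiment as a term and 0 to 938 with a library left out. For paclitaxel 0 were called, 9 in DESeq2, 2 without the filter and 0 to 4 with a library left out. Shares of cells with a UMI depend on depth. Correlations across cells moved by more than 1 SD between libraries for 2 alternative values and by less for 82, and KRT8 with KRT18 was 0.52 with all UMIs. Pairing by experiment and partner drug was run as the matched pairs above. By replicate number, no paired fit was made, since the labels number no repeat of a treatment within an experiment.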
